A study of Mus musculus with 2 samples.

Results

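The genes described here are the translation factors and cytosolic aminoacyl-tRNA synthetases that were counted in mouse thymocytes. They were chosen by name alone: every gene symbol starting with Eif1 to Eif6 or with Eef1 or Eef2, together with 19 synthetase genes from Aars to Yars. This gave 84 of the 27933 gene symbols counted, of which 56 are called initiation factors here, 9 elongation factors and 19 synthetases. The names also bring in regulators: the 4 kinases of eIF2, the 3 eIF4E-binding proteins, the eEF2 kinase Eef2k, and Eef1e1, which is a scaffold of the multisynthetase complex rather than an elongation factor. By its name Eif5a is counted with the initiation factors throughout, though its protein acts in elongation. Thymocytes are the developing T cells of the thymus. One library came from wild type thymocytes, named NMe_WT in the labels, and the other, named NMe_GSmut, from thymocytes with GATA sites 1 and 2 (GS1+2) of NMe mutated on both alleles. NMe lies far from the Myc gene, which it enhances, and is bound by NOTCH1, and GATA3 is the main GATA factor of thymocytes. Each library was loaded at 5000 cells on a 10x Chromium instrument. The labels give no age, sex, strain or number of animals. There was 1 library per genotype, so no test between genotypes was possible, and every difference below is between these libraries. The mutated sites lie in an enhancer, so the reads of the genes described here cannot check the genotype.

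The wild type library held 1346 cell barcodes and 6638880 unique molecular identifiers (UMIs), and the mutant library 1737 barcodes and 6364506 UMIs. The medians were 3323.5 and 2596 UMIs per barcode, the lowest totals were 1781 and 1416, and 1 barcode sequence occurred in both libraries. The 84 genes took 2.23% of wild type and 2.12% of mutant UMIs. Cells were placed in 5 stages by UMIs of marker genes, none of which is a translation gene. Early (CD4-CD8- like) cells carried Il2ra, Hes1 and related genes and numbered 57 in wild type and 202 in mutant. Cycling cells carried genes such as Mki67 and Top2a (535 and 238 cells). Resting CD4+CD8+ (DP-like) cells carried Rag1 and Cd8b1 (332 and 537), post-selection-like cells Itm2a and Cd69 (85 and 134), and single-positive (SP-like) cells Ccr7 and Klf2 (159 and 311). A stage is a range of marker UMIs, not a cell type. Between 1.68% and 11.9% of a stage's cells had a marker rate just above its limit, and 12.3% of wild type and 17.8% of mutant early cells also passed the cycling limit. Cells were set aside by B cell, antigen-presenting and macrophage markers or by a limit for innate-like T and NK cells. Of those set aside, 66 of 112 wild type and 65 of 213 mutant cells also passed the cycling limit. The innate-like limit was on UMIs without a rate, so it can take deep cycling cells. How many of these cells it took is not given here. B cell, antigen-presenting and macrophage markers together were between 31.1 and 171 UMIs per 1000000 UMIs (CPM) in the 5 stages of both libraries. Cd3e, a T cell gene, was between 481 and 1002 CPM there. No doublet caller was used here.

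Translation starts when eIF2 brings the initiator tRNA to the small ribosomal subunit, where eIF1, eIF1A and the many-subunit eIF3 help it scan for a start codon. The eIF4F complex, made of the cap-binding protein eIF4E, the scaffold eIF4G and the RNA helicase eIF4A, loads the messenger RNA, and the 4E-BP proteins inhibit it by holding eIF4E. eIF2B recharges eIF2 with GTP, and the eIF2 kinases block that step under stress. During elongation eEF1A delivers charged tRNAs, the eEF1B subunits recharge eEF1A, and eEF2 moves the ribosome along until eEF2 kinase stops it. Synthetases charge each tRNA with its amino acid. Thymocytes grow and divide after the pre-T cell receptor checkpoint and then rest as small CD4+CD8+ cells, and MYC is known as an activator of many genes for translation.

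Levels are UMIs summed over the cells of a stage and library, in CPM, and where a pair of values stands together the wild type one comes first. UMIs of 3′ ends count molecules, so levels carry no division by transcript length. Intervals in parentheses are exact 95% intervals that cover counting error only. For single genes the log2 ratio has nothing added. For lists the median log2 ratio has 5 CPM added to both sides, and its bounds are the medians of the members' lower and upper limits. A gene passed the floor of a comparison with a mean of at least 20 CPM and at least 20 UMIs in all, and was called with at least a 1.5-fold difference on the scale with 5 CPM added. Over all cells 67 of the 84 genes passed the floor: 45 initiation factors, 7 elongation factors and 15 synthetases. The genes Eef1a2, Eif4e1b and Eif2c5 had 0 UMIs in both libraries, with upper limits of 0.56 CPM in wild type and 0.58 CPM in mutant. Eif4ebp3 had 1 and Eif2s3y 2 UMIs in both together.

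The 3 groups had different courses over the stages. Initiation factors together stood highest in cycling or DP cells and lowest in SP cells. Summed elongation factors were highest in SP cells and lowest in cycling cells. By gene, however, 4 of 6 elongation factors past the floor were higher in cycling than in DP cells in each library. Synthetases were highest in cycling cells, in wild type by less than counting error over post-selection cells. Summed initiation factor levels were 9217 and 9673 CPM in early cells, 11246 and 12221 CPM in cycling cells, 11776 and 10675 CPM in DP cells, 10854 and 11207 CPM in post-selection cells and 8563 and 8576 CPM in SP cells. Summed elongation factor levels in the same order were 12572 and 9543 CPM, 9335 and 7548 CPM, 10244 and 8134 CPM, 10797 and 10273 CPM, and 13328 and 13167 CPM. The synthetases summed to 714 and 663 CPM in early cells, 812 and 1099 CPM in cycling cells, 661 and 660.5 CPM in DP cells, 786 and 835 CPM in post-selection cells and 589.8 and 565 CPM in SP cells. The largest differences of these sums between libraries were in elongation factors of early, cycling and DP cells, lower in mutant, and in synthetases of cycling cells, higher in mutant.

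**Figure D1:**
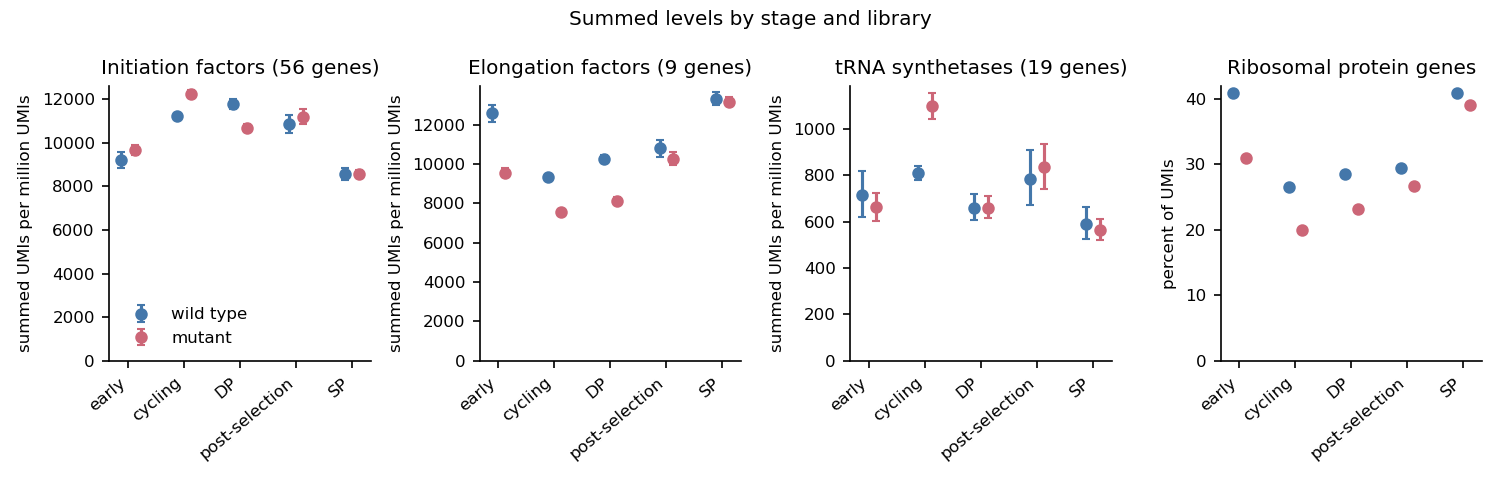
Summed level (CPM) of the 56 initiation factors, 9 elongation factors and 19 synthetases, and percent of UMIs from ribosomal protein genes, in 5 stages (x axis), with 1 point per library. Bars are exact 95% Poisson intervals, covering counting error only and not drawn for ribosomal protein genes; the synthetases of mutant cycling cells stand at 1099 and those of wild type at 812.

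The share of UMIs from 86 ribosomal protein genes, which are not among the genes chosen, moved in the same sense as the elongation factors. It was 40.9% in wild type and 30.9% in mutant early cells, 26.5% and 19.9% in cycling cells, 28.6% and 23.2% in DP cells, 29.4% and 26.6% in post-selection cells, and 40.9% and 39.1% in SP cells. Across the 10 combinations of stage and library, Pearson's r with this share was 0.96 for summed elongation factors (Spearman's rho 0.90), 0.96 without Eef1a1, -0.90 for initiation factors and -0.69 for synthetases. These are descriptions: the 10 points come from 2 libraries and share their totals, so a larger share of one group lowers all others.

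**Figure D2:**
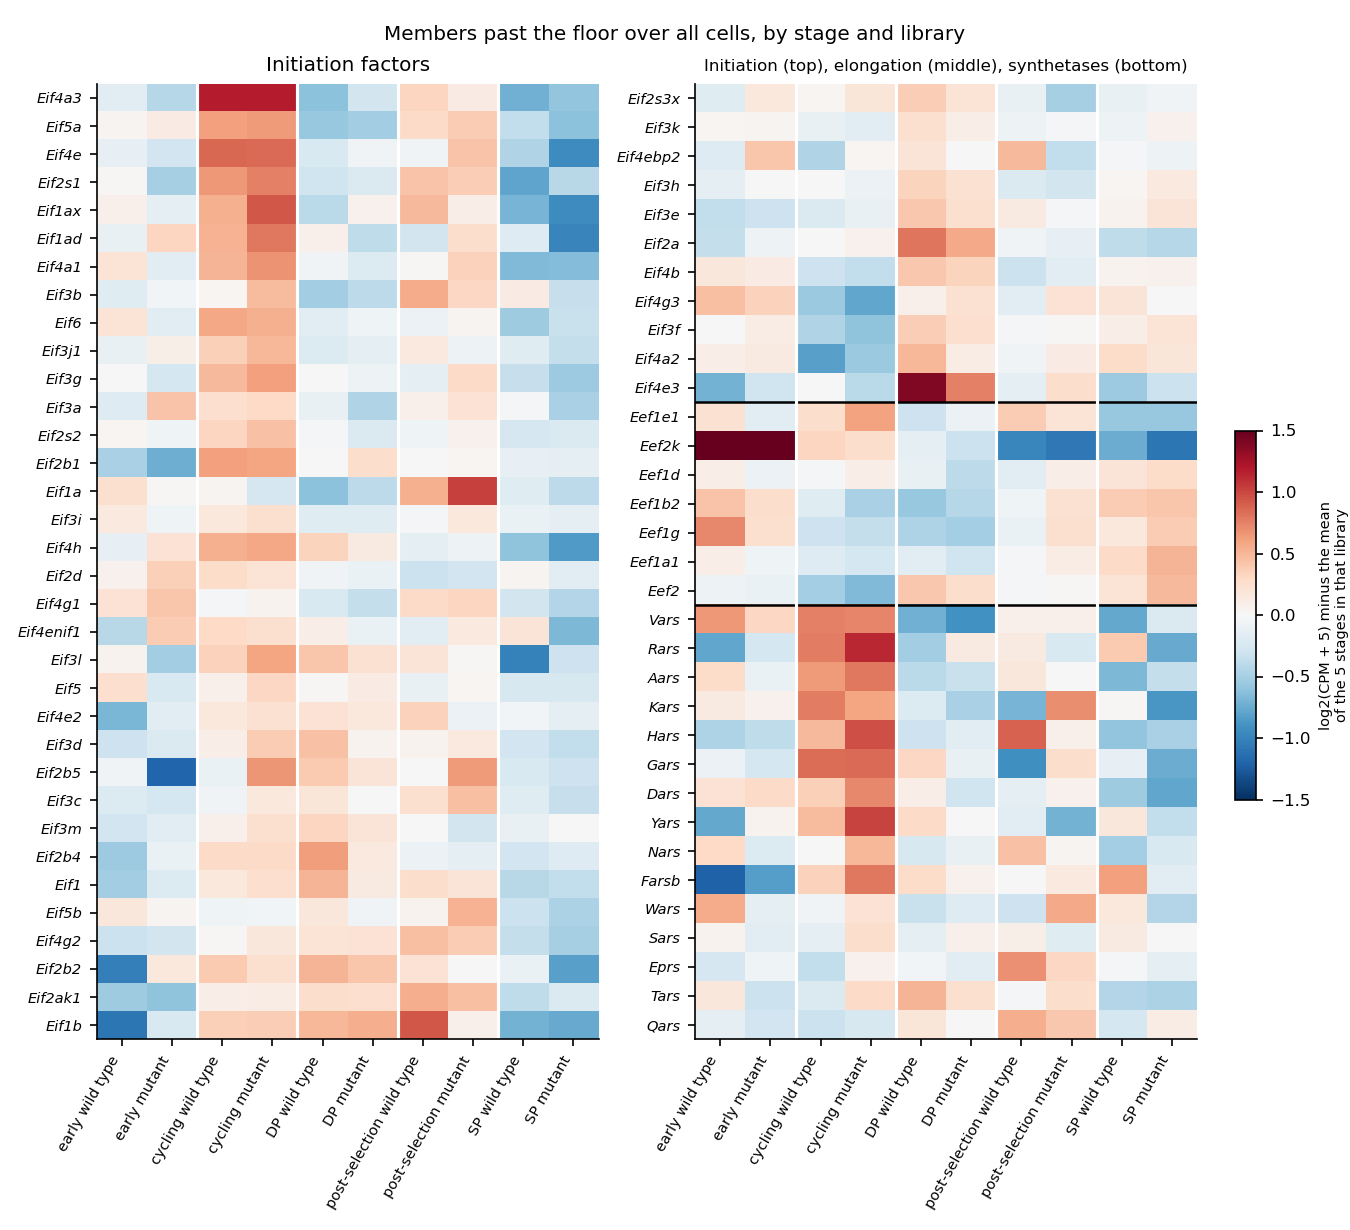
Level of each of the 67 genes that passed the floor over all cells, as log2(CPM + 5) minus the mean of the 5 stages in that library, by stage and library (columns); red is above and blue below the mean, and colours stop at 1.5 on either side. Rows are ordered within a group by cycling minus DP; Eif4a3 leads the initiation factors and Eef2k is highest in early cells of both libraries.

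Among initiation factors the highest stage was the same in both libraries for 28 of 45 genes: cycling for 14, DP for 9, post-selection for 4 and early for 1. In cycling cells against DP cells, 6 of 45 initiation factors past the floor were called higher and 5 lower in both libraries, beside 15.2% and 17.6% of all genes. Their median log2 ratio was -0.071 (-0.38 to 0.31) for the wild type and 0.19 (-0.13 to 0.67) for the mutant library, with -0.14 and -0.087 over all genes. Both counts were a smaller share than among all genes.

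The largest cycling over DP ratio among initiation factors was that of Eif4a3, the helicase of the exon junction complex, which is named for eIF4A but is known for work on spliced RNA. It was at 71.0 and 80.0 CPM in early cells, 189 and 252 CPM in cycling cells, 50.7 and 89.1 CPM in DP cells, 102 and 119 CPM in post-selection cells and 46.6 and 70.3 CPM in SP cells. Cycling cells were the highest in each library, and the cycling over DP log2 ratio was 1.90 (1.45 to 2.38) for the wild type and 1.498 (1.18 to 1.83) for the mutant library. Eif5a, whose protein carries hypusine and helps ribosomes through stalling sequences, was at 466 and 489 CPM in DP cells and 1066 and 1099.6 CPM in cycling cells, log2 ratios of 1.19 (1.04 to 1.35) and 1.17 (1.03 to 1.31). It was also called higher than in DP cells in early cells (log2 0.62 and 0.66) and in post-selection cells (0.86 and 0.91), beside 7.66% and 6.31% of all genes called higher there. Its paralog Eif5a2 had 22 and 25 UMIs in all cells. The other factors called higher in cycling cells were Eif4e, Eif2s1, Eif1ax, one of the genes for eIF1A, and Eif6, which keeps the large subunit from joining too early, with log2 ratios from 0.62 to 1.15.

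The paralogs of eIF4F subunits took different shares in cycling and resting cells. Eif4a1, the main helicase, was at 931 and 1153 CPM in cycling cells and 629 and 623 CPM in DP cells, while Eif4a2 was at 76.5 and 96.0 CPM in cycling cells and 197 and 156 CPM in DP cells. Eif4a2 took 7.59% (6.72 to 8.53) of the pair's UMIs in wild type and 7.68% (6.49 to 9.01) in mutant cycling cells, against 23.8% (20.7 to 27.2) and 19.98% (17.4 to 22.8) in DP cells and 29.0% (23.8 to 34.7) and 26.3% (23.0 to 29.9) in SP cells. The intervals of cycling cells lay below those of DP and SP cells in both libraries. For the cap-binding proteins the pair was Eif4e, at 139 and 188 CPM in cycling and 62.5 and 97.8 CPM in DP cells, and Eif4e3, at 49.0 and 34.8 CPM in cycling and 138 and 83.9 CPM in DP cells. Eif4e3 made up 26.1% (22.7 to 29.7) and 15.6% (11.8 to 20.1) of their UMIs in cycling cells and 68.8% (61.3 to 75.7) and 46.2% (39.2 to 53.2) in DP cells. Eif4g3, a paralog of the scaffold Eif4g1, was called lower in cycling than in DP cells, with log2 ratios of -0.72 (-1.30 to -0.12) and -1.16 (-1.83 to -0.51), as was Eif4b, a cofactor of the helicase (log2 -0.74 and -0.73). Eif4g2, a scaffold that lacks the eIF4E site, held between 78.2% and 90.0% of the UMIs of Eif4g2 and Eif4g1 over the stages and libraries.

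**Figure D3:**
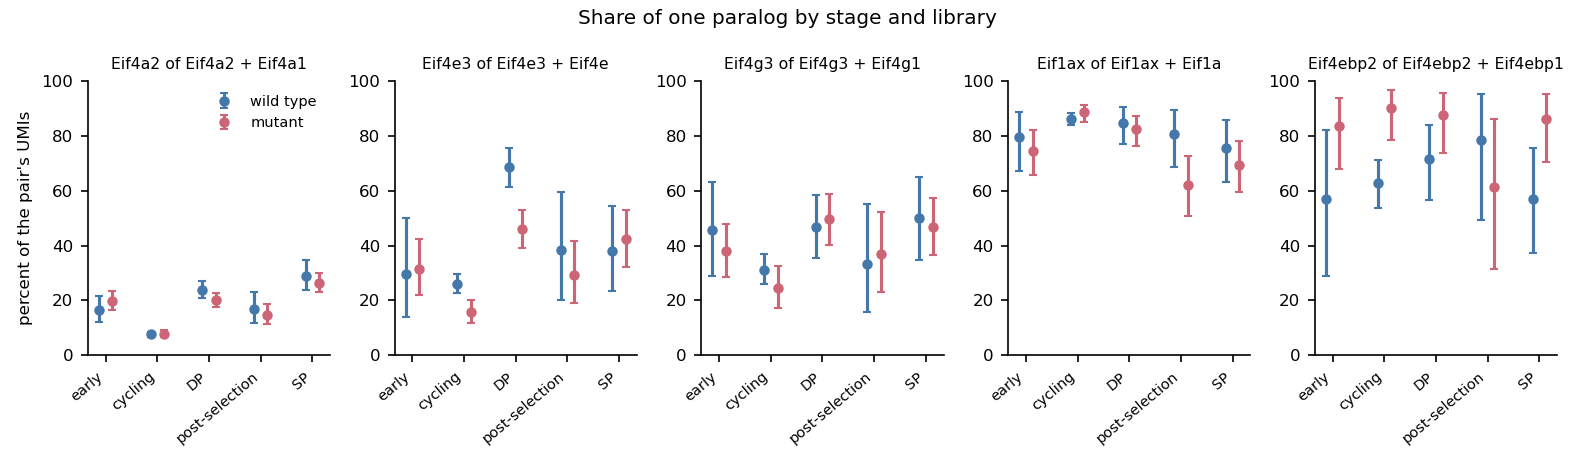
Percent of a pair's UMIs that belonged to the named paralog, by stage (x axis) and library, for 5 pairs; bars are exact 95% binomial intervals. Eif4a2 is lowest in cycling cells of both libraries, at 7.59% and 7.68%, and Eif4e3 is highest in wild type DP cells, at 68.8%.

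Eif4e3 stood highest in resting DP cells of both libraries. It was at 28.4 and 37.9 CPM in early cells, 44.4 and 58.0 CPM in post-selection cells and 32.4 and 37.1 CPM in SP cells, each below the DP values given above. In early cells 4 of 46 initiation factors past the floor were called lower than in DP cells in both libraries, beside 15.4% of all genes, and 2 were called higher, beside 7.66%. The lower ones were Eif4e3, Eif1b, Eif2a and Eif2ak1, and the higher ones Eif5a and Eif2ak2. Eif2ak2 passed the floor there only through its early level, and Eif2ak1 only through its DP level. In SP cells 5 of 45 were called lower, beside 26% of all genes, and 0 higher, beside 6.18%. These were Eif4e3, Eif1b, Eif2a, Eif4h and Eif2b2. Eif4e3 had log2 ratios of -2.09 (-2.94 to -1.33) and -1.18 (-1.75 to -0.63) in SP cells, and Eif1b, a paralog of the start codon factor Eif1, -1.25 (-1.76 to -0.77) and -1.34 (-1.66 to -1.03). Eif2a, an alternative carrier of initiator tRNA that is not a subunit of eIF2, was at 205 and 139 CPM in DP cells and 87.2 and 67.5 CPM in SP cells. It was also the 1 initiation factor called lower in post-selection cells, beside 11% of all genes. There 4 of 45, Eif2s1, Eif5a, Eif3b and Eif1a, were called higher, beside 6.31% of all genes. For initiation factors as a group, the SP over DP median of -0.31 in wild type and -0.32 in mutant lay close to that of all genes, -0.39 and -0.45. It was 0.14 and 0.17 when stages were scaled by the median ratio of genes, so its sign depended on the scaling. The early over DP median, -0.30 and -0.17, was -0.0011 and 0.0045 in that scaling.

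Eif1, which guards the choice of start codon, was the most abundant initiation factor. Eif1 was at 1172 and 1495 CPM in early cells, 1888 and 2057 CPM in cycling cells, 2392 and 1891 CPM in DP cells, 2029 and 1972 CPM in post-selection cells and 1263 and 1332 CPM in SP cells. Early and SP cells were thus the lowest, and the order of the libraries differed between stages. For eIF1A, the X-linked Eif1ax held 84.0% of wild type and 80.5% of mutant UMIs of the pair with Eif1a. In post-selection cells Eif1a had its highest level, 53.3 and 89.9 CPM, with log2 ratios of 1.33 (0.14 to 2.46) and 1.56 (0.81 to 2.30) over DP cells. Near-identical pairs such as Eif1a with Eif1ax and Eif3j1 with Eif3j2 share sequence, and how the counting treated reads that match both is not given in the sources used here.

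The subunits of eIF2 differed in their highest stage. Eif2s1, which encodes the alpha subunit that the stress kinases modify, was at 146 and 161 CPM in cycling cells and 73.1 and 79.5 CPM in DP cells, log2 ratios of 1.00 (0.62 to 1.41) and 1.02 (0.66 to 1.38). Eif2s2, the beta subunit, was at 351 and 452 CPM in cycling and 272 and 286 CPM in DP cells. Eif2s3x, the X-linked gamma subunit, was at its highest in DP cells, 101 and 78.6 CPM, with 79.1 and 77.2 CPM in cycling cells, a difference within counting error in both libraries. The 5 subunits of eIF2B, the exchange factor of eIF2, summed to 173 and 224 CPM in cycling cells and 185 and 198 CPM in DP cells. Of the 4 eIF2 kinases, Eif2ak1 (HRI, known for sensing haem) passed the floor over all cells, with 23.6 and 24.8 CPM, and Eif2ak4 (GCN2, activated by uncharged tRNA) had 23 and 18 UMIs. Eif2ak2 (PKR, activated by double-stranded RNA) was highest in early cells, 49.7 and 29.5 CPM, against 14.1 and 13.98 CPM in DP cells.

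Of the 14 eIF3 genes, which build the scaffold of the scanning complex, Eif3f alone was called between cycling and DP cells. Eif3f was at 624 and 498 CPM in cycling cells and 1109 and 907 CPM in DP cells, log2 ratios of -0.83 (-0.94 to -0.72) and -0.86 (-1.004 to -0.73). Eif3e, Eif3h and Eif3k also had their highest level in DP cells of both libraries, and in mutant the SP values of all 3 lay within counting error of it. Eif3b was called higher in post-selection than in DP cells, at 97.7 and 84.1 CPM against 43.6 and 49.8 CPM. Eif3j1, whose protein binds the complex loosely, and its paralog Eif3j2 stood at 124 and 110.4 CPM and at 13.0 and 8.99 CPM over all cells.

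Between the libraries, initiation factors differed little as a group. Their median log2 ratio of mutant over wild type was -0.0086 over all cells (0.076 over all genes), and 0 of 45 were called, beside 6.14% of all genes called higher and 2.65% called lower. By stage the median was 0.16 (-0.48 to 0.73) in early, 0.16 (-0.10 to 0.41) in cycling, -0.0012 (-0.42 to 0.36) in DP, 0.11 (-0.55 to 0.74) in post-selection and -0.0026 (-0.49 to 0.47) in SP cells. The medians of all genes were 0.23, 0.17, 0.11, 0.087 and 0.046 in the same order. In cycling cells 36 of 45 initiation factors were higher in mutant, but 25 were when ribosomal protein, mitochondrial and Malat1 UMIs were left out of the totals, and 23 when libraries were scaled by the median ratio. In early cells 26 of 43 were higher, and 17 and 16 under the same scalings. In DP cells the count was 22 of 45, and 15 and 14 under these scalings, in SP cells 21 of 42, and 15 under both, and over all cells 21 of 45, and 19 and 12. The median of all genes in early cells, 0.23, was 0.022 and -0.0054 under them.

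**Figure D4:**
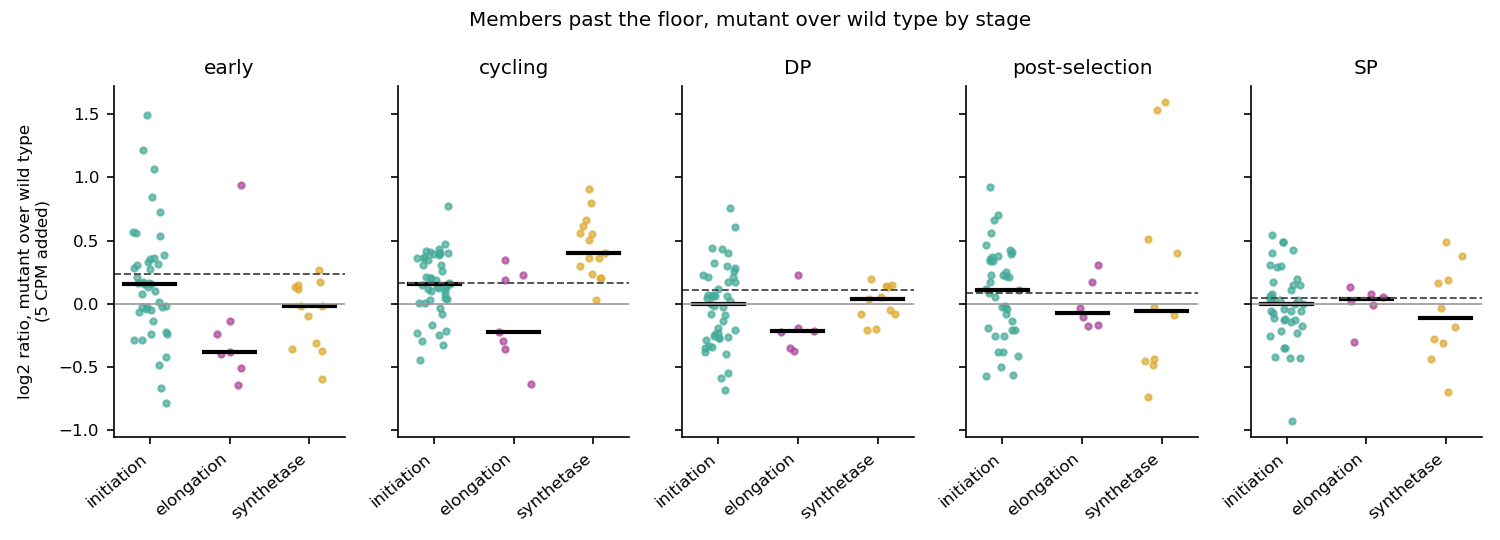
Log2 ratio of mutant over wild type with 5 CPM added (y axis) for each gene past the floor, in 5 stages and 3 groups; black bars are group medians and the dashed line is the median of all genes in that stage. The synthetases of cycling cells, with a median of 0.40, lie above the dashed line, and the elongation factors of early, cycling and DP cells, with medians of -0.38, -0.22 and -0.22, lie below it.

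Some initiation factors differed by more than counting error in 1 stage or more. In DP cells 2 were called higher in mutant, beside 8.13% of all genes, and 2 lower, beside 3.19%. Eif4a3 was at 50.7 and 89.1 CPM, log2 0.81 (0.29 to 1.36), and Eif4e at 62.5 and 97.8 CPM, log2 0.65 (0.16 to 1.15). Eif4e3 was at 138 and 83.9 CPM, log2 -0.72 (-1.12 to -0.32), and Eif1ad, an eIF1A-like protein, at 69.6 and 44.6 CPM, log2 -0.64 (-1.21 to -0.077). DP cells of the mutant library were thus higher in Eif4e and lower in its paralog Eif4e3. With stage limits at doubled marker rates 0 genes were called in DP cells. Eif4e was also higher in mutant cycling cells, log2 0.43 (0.21 to 0.65), and in mutant post-selection cells, where it was at 71.0 and 139 CPM, log2 0.97 (0.13 to 1.89). In post-selection cells it was 1 of 3 initiation factors called higher, beside 14.7% of all genes, with Eif1a and Eif3g, whose intervals held 0, and 0 were called lower, beside 5.98%. In SP cells 0 were called higher, beside 6.72%, and 1 lower, beside 4.42%: Eif1ad, at 56.8 and 27.6 CPM, log2 -1.04 (-1.84 to -0.24).

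In cycling cells Eif2b5, the catalytic subunit of eIF2B, was the 1 initiation factor called higher, beside 7.42% of all genes, and 0 were called lower, beside 2.07%. It was at 20.4 and 38.3 CPM, log2 0.91 (0.37 to 1.44). All 4 eIF2B subunits past the floor there were higher in mutant, beside 72.1% of all genes. Of these, Eif2b1 was at 43.7 and 49.4 CPM and Eif2b2 at 56.1 and 62.6 CPM, with overlapping intervals. The 5 genes of eIF4F summed to 1229 and 1528 CPM, log2 0.31 (0.24 to 0.39). The 14 eIF3 genes summed to 3885 and 3839 CPM, log2 -0.017 (-0.063 to 0.028). The sums follow their abundant genes. By gene, 4 of 5 eIF4F and 10 of 13 eIF3 genes past the floor were higher in mutant. The 3 lower eIF3 genes were Eif3f, Eif3h and Eif3k. The median log2 ratio of all genes was 0.17 there. In early cells 5 initiation factors were called higher, beside 23.3%, and 2 lower, beside 4.85%. Eif1b was at 67.5 and 163 CPM, log2 1.27 (0.56 to 2.05), and Eif3a, the largest eIF3 subunit, at 110.1 and 185 CPM, log2 0.75 (0.18 to 1.37). Eif2b2 had a log2 ratio of 1.73 (0.40 to 3.43), from 5 wild type UMIs. Eif3l was lower in mutant, at 124 and 70.2 CPM, log2 -0.82 (-1.48 to -0.16). The other calls, Eif2b4 and Eif4enif1 higher and Eif2ak2 lower, had intervals that held 0. Eif2b2 and Eif4enif1 passed the floor there only through their mutant level. The wild type values rest on 57 early cells.

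Several regulators of initiation lay below the floor and so were not called. Eif4ebp1, an inhibitor of eIF4E, had 114 wild type and 44 mutant UMIs over all cells, or 17.2 and 6.94 CPM, log2 -1.31 (-1.85 to -0.80). By stage it was at 21.3 and 8.42 CPM in early, 13.6 and 3.48 CPM in cycling, 15.3 and 4.37 CPM in DP, 13.3 and 14.5 CPM in post-selection and 24.3 and 4.75 CPM in SP cells. Mutant was lower in 4 of the 5 stages, with log2 ratios of -1.97 (-3.65 to -0.64) in cycling, -1.81 (-3.65 to -0.23) in DP and -2.36 (-4.21 to -0.75) in SP cells, each from 5 mutant UMIs. Eif4ebp2 was at 25.97 and 30.4 CPM, and it held 60.1% (54.2 to 65.9) of the pair's UMIs in wild type and 81.4% (75.9 to 86.2) in mutant. Eif2ak3 (PERK, the kinase of the endoplasmic reticulum) had 39 and 82 UMIs, log2 1.14 (0.57 to 1.72), and in DP cells 7 and 31 UMIs, log2 1.71 (0.50 to 3.14).

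Eef1a1, the carrier of charged tRNA, was the most abundant of the 84 genes. Eef1a1 was at 7200.5 and 5481 CPM in early cells, 5863 and 4769 CPM in cycling cells, 5994 and 4629 CPM in DP cells, 6615 and 6149.9 CPM in post-selection cells and 8213 and 8158 CPM in SP cells. SP cells were the highest in both libraries. Eef1b2, the exchange subunit for eEF1A, was at 1555 and 1095 CPM in early cells, 1015 and 652 CPM in cycling cells, 777 and 681 CPM in DP cells and 1506 and 1219 CPM in SP cells. Eef1g, which holds the exchange complex together, was at 1615 and 1030.4 CPM in early, 792 and 679 CPM in cycling, 711 and 612 CPM in DP and 1094 and 1137 CPM in SP cells. DP cells were the lowest for Eef1g in both libraries. In SP cells Eef1b2 and Eef1g were the 2 of 6 elongation genes past the floor called higher than in DP cells, with log2 ratios of 0.95 (0.80 to 1.11) and 0.84 (0.71 to 0.97) for Eef1b2 and 0.62 (0.45 to 0.79) and 0.89 (0.76 to 1.03) for Eef1g. All genes were called higher there in 6.18% and lower in 26%, and 0 elongation genes were called lower. The group's SP over DP median was 0.38 (0.21 to 0.58) for the wild type and 0.74 (0.58 to 0.89) for the mutant library, where all genes had -0.39 and -0.45. It was above 0 under all 3 scalings run, between 0.29 and 0.84 in wild type over all alternatives.

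Eef2, the translocation GTPase, ran apart from the eEF1 genes. It was at 1743 and 1478 CPM in early cells, 1282 and 997 CPM in cycling cells, 2425 and 1901 CPM in DP cells, 1816 and 1603 CPM in post-selection cells and 2108 and 2221 CPM in SP cells. Cycling cells were the lowest in both libraries, with a log2 ratio to DP cells of -0.92 (-0.995 to -0.84) and -0.93 (-1.03 to -0.83). It was the 1 of 6 elongation genes called lower, a share close to the 17.6% of all genes, and 0 were called higher.

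Eef2k, the kinase that inhibits eEF2, was highest in early cells, and in mutant its range over stages was the widest of the 84 genes (in wild type Eif2ak2 had a like range). It was at 49.7 and 99.7 CPM in early cells, 18.3 and 22.3 CPM in cycling cells, 11.8 and 13.1 CPM in DP cells, 4.44 and 5.80 CPM in post-selection cells and 6.08 and 5.70 CPM in SP cells. The early values lay above those of the 4 other stages in each library. The early over DP log2 ratio was 2.08 (0.80 to 3.41) in wild type, from 14 early UMIs, and 2.93 (2.11 to 3.84) in mutant, from 71. No single early cell held more than 4 of these UMIs. Eef1b2, Eef1g and Eef2k were the 3 of 7 elongation genes called higher in early cells, beside 7.66% of all genes, and 0 were called lower, beside 15.4%. Eef2k passed the floor only through its early level. Eef2kmt, which methylates eEF2, stayed below the floor, with 63 and 68 UMIs.

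**Figure D5:**
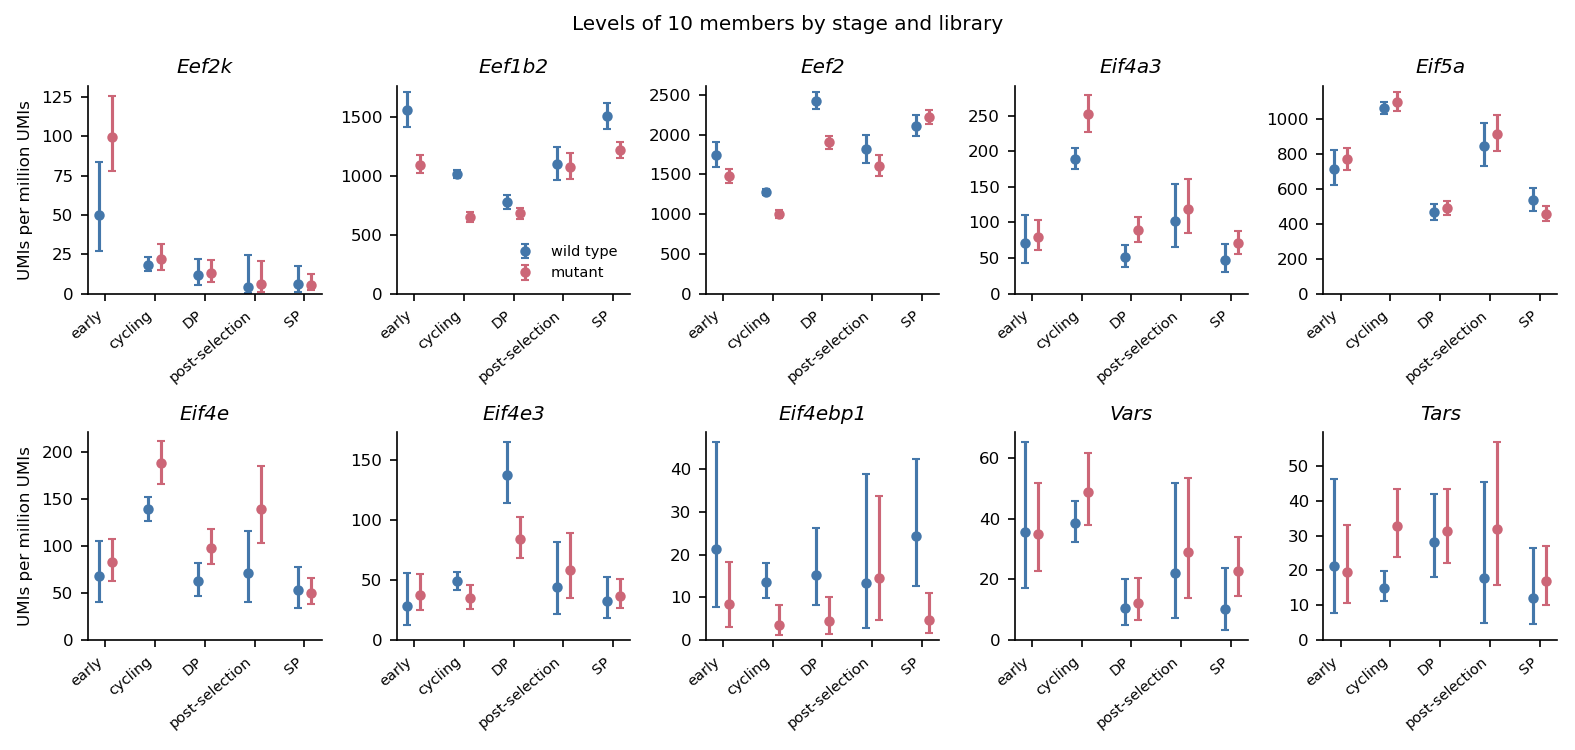
Level (CPM) of 10 genes in 5 stages (x axis), 1 point per library, with exact 95% Poisson intervals; the y axes start at 0 and differ between panels. Eef2k is highest in early cells, Eif4a3, Eif5a and Eif4e in cycling cells, and Eif4e3 in DP cells, in both libraries.

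Elongation factors took a smaller share of UMIs in mutant early, cycling and DP cells, while their summed SP values lay close together. In SP cells Eef1b2 was still lower in mutant, log2 -0.30 (-0.44 to -0.17). The group's median log2 ratio was -0.38 (-0.50 to -0.080) in early cells, -0.22 (-0.34 to -0.12) in cycling cells, -0.22 (-0.40 to -0.047) in DP cells, -0.069 (-0.24 to 0.32) in post-selection cells and 0.038 (-0.11 to 0.19) in SP cells. In early cells 6 of 7 genes were lower in mutant. Eef1g was called lower there, beside 4.85% of all genes, log2 -0.65 (-0.82 to -0.48), with Eef1b2 at -0.51, Eef1a1 at -0.39 and Eef2 at -0.24. Eef2k was the 1 called higher, beside 23.3%, log2 1.00 (0.16 to 1.95). In cycling cells Eef1b2 was called lower, beside 2.07%, log2 -0.64 (-0.74 to -0.53), and Eef2 had a ratio of -0.36 (-0.45 to -0.28) and Eef1a1 of -0.30 (-0.34 to -0.26), while Eef1d, another exchange subunit, had 0.19 (0.032 to 0.35) and Eef1e1 0.37 (0.050 to 0.69). In DP cells 5 of 6 were lower and 0 were called, with Eef1a1 at -0.37 (-0.43 to -0.32) and Eef2 at -0.35 (-0.44 to -0.26).

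The ribosomal protein share given above was lower in mutant in the same stages, and its part in the result was not tested beyond the scalings given here. With ribosomal protein, mitochondrial and Malat1 UMIs left out of the totals the medians were lower still, -0.61 in early, -0.36 in cycling and -0.31 in DP cells. With no CPM floor the cycling median was -0.047. In SP cells 4 of 6 were higher in mutant, and 2 of 6 under both other scalings. Early cells differed in other genes too: their early markers summed to 1832 CPM in wild type against 3293 in mutant, Ptcra stood at 156 against 411 and Malat1 at 16531 against 27396. Within DP cells, early markers summed to 62.5 CPM in wild type and 214 in mutant. The part of these genes in the difference was not tested. Fewer cells of a kind within a stage and less RNA per cell cannot be told apart in summed UMIs.

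Synthetases were at low levels, from 10.7 CPM for Mars to 95.6 CPM for Dars over all wild type cells, and from 12.6 CPM for Iars to 108 for Dars in mutant. The highest stage was the same in both libraries for 8 of 15 past the floor, cycling for 6 and post-selection for 2. In cycling cells against DP cells, 5 of 14 past the floor were called higher in both libraries, beside 15.2% of all genes, and 0 lower, beside 17.6%. These were Vars, Rars, Aars, Hars and Kars. Vars passed the floor only through its cycling level, and Rars was at 9.43 and 20.1 CPM in DP cells. Vars, which charges valine tRNA, was at 38.7 and 48.7 CPM in cycling cells and 10.6 and 12.2 CPM in DP cells, log2 1.87 (0.90 to 3.03) and 1.99 (1.15 to 2.94). Aars, for alanine, was at 88.6 and 103 CPM in cycling against 40.1 and 44.6 CPM in DP cells, log2 1.14 (0.63 to 1.70) and 1.21 (0.74 to 1.70). Kars, for lysine, was at 57.9 and 59.1 CPM against 27.1 and 25.3 CPM, log2 1.09 and 1.22. The intervals of all 5 lay above 0 in both libraries.

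The median cycling over DP log2 ratio of the synthetases was 0.25 (-0.17 to 0.96) for the wild type and 0.99 (0.46 to 1.49) for the mutant library, and 11 and 13 of 14 were higher in cycling cells. Of 14 synthetases 1 was called higher in early than in DP cells, a share close to the 7.66% of all genes: Vars, with log2 ratios of 1.74 (0.29 to 3.22) and 1.52 (0.52 to 2.58). Vars passed the floor there only through its early level. The 1 called lower, beside 15.4%, was Farsb, a subunit of the phenylalanine enzyme, at 10.7 and 21.1 CPM in early and 38.9 and 43.7 CPM in DP cells. Farsb passed the floor there only through its DP level, and its wild type early value rests on 3 UMIs. In SP cells Tars was the 1 of 11 called lower, beside 26%, with log2 ratios of -1.22 (-2.80 to 0.11) and -0.88 (-1.78 to -0.025), and 0 were called higher, beside 6.18%. Tars passed the floor there only through its DP level. Post-selection cells had 0 of 12 called, beside 6.31% higher and 11% lower.

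In cycling cells 18 of the 19 synthetases were higher in the mutant library. The exception was Lars, for leucine, at 17.7 and 11.1 CPM, log2 -0.67 (-1.57 to 0.14), which lay below the floor. Of the 15 past the floor all were higher, among them Tars and Wars, which passed only through their mutant level; 13 had at least 20 CPM in wild type by itself, and these 13 were higher too. For the 15 the median log2 ratio was 0.40 (0.068 to 0.80), where all genes had 0.17 and 72.1% of them were higher. Tars, for threonine, was at 15.1 and 32.7 CPM, log2 1.12 (0.52 to 1.72). Farsb was at 41.0 and 75.1 CPM, log2 0.87 (0.50 to 1.245). Yars, for tyrosine, was at 23.6 and 40.3 CPM, log2 0.77 (0.26 to 1.28), and Wars, for tryptophan, at 16.8 and 28.5 CPM, log2 0.76 (0.15 to 1.37). These 4 were called higher, beside 7.42% of all genes, and 0 were called lower, beside 2.07%; without Tars and Wars 2 were called. With cells thinned to 1500 UMIs and 5 CPM added the ratio of Wars was -0.14. The smallest ratio was that of Kars, 0.031 (-0.35 to 0.41), and the intervals of 9 of the 15 lay above 0.

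Mutant and wild type cycling cells also differed in stage markers. In mutant the coreceptor genes Cd4, Cd8a and Cd8b1 summed to 1278 CPM against 2098 in wild type, and early markers to 165 against 59.0. Cycling markers themselves summed to 7083 and 7558 CPM. The part of these markers in the result was not tested beyond the following limit on cells. With cycling cells limited to the 509 wild type and 178 mutant cells that had at least 2 coreceptor UMIs, the synthetase median was 0.49. For the same 15 genes it was 0.28 without ribosomal protein, mitochondrial and Malat1 UMIs and 0.25 with scaling by the median ratio, with 14 of 15 higher under each.

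In the other stages the synthetases lay on both sides of 0. Their median log2 ratio was -0.015 (-1.12 to 1.09) in early, 0.037 (-0.61 to 0.70) in DP, -0.060 (-0.99 to 0.89) in post-selection and -0.11 (-0.87 to 0.66) in SP cells, with 5 of 12, 6 of 11, 4 of 10 and 4 of 10 higher in mutant. Under both other scalings the count was 1 of 12 in early and 4 of 11 in DP cells, and over all cells it was 10 of 15, and 10 and 6 under them. In post-selection cells 2 of 10, Gars and Kars, were called higher, beside 14.7% of all genes, each from 4 wild type UMIs. Their log2 ratios were 1.78 (0.21 to 3.78) and 1.84 (0.29 to 3.84). Both passed the floor there only through their mutant level. Hars was called lower, beside 5.98%, at -0.81 (-1.95 to 0.32). Nars in early cells and Kars in SP cells were also called lower, beside 4.85% and 4.42% of all genes, with intervals that held 0. In these stages 0 were called higher, beside 23.3% and 6.72%. Kars passed the floor in SP cells only through its wild type level.

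Genes of the same pathway outside the name rule were counted beside these. In cycling cells 72.1% of all genes were higher in mutant, with a median log2 ratio of 0.17. There 7.42% of all genes were called higher and 2.07% lower. The 3 further genes of cytosolic charging, Farsa, which encodes the partner subunit of Farsb, and the scaffolds Aimp1 and Aimp2, were all higher in mutant cycling cells and 0 were called: Farsa had a log2 ratio of 0.61 (0.19 to 1.01), Aimp2 0.56 (0.056 to 1.04) and Aimp1 0.17 (-0.054 to 0.39). Of 23 mitochondrial synthetases and translation factors only 4 passed the floor in cycling cells, with a median of 0.14 and 0 called. Of 14 amino acid response genes 6 passed, all 6 were higher in mutant cycling cells with a median of 0.34, and 0 were called. Atf4, the transcription factor of that response, had a ratio of 0.55 (0.23 to 0.87), and Phgdh, which starts serine synthesis, 0.40 (0.23 to 0.57). In cycling against DP cells 3 of the 6 past the floor were called higher in both libraries, beside 15.2% of all genes, and 0 lower, beside 17.6%. Of 15 other translation genes, such as the poly(A)-binding protein Pabpc1, 8 of 15 were higher in mutant cycling cells, with a median of 0.062. The 1 called higher was Abce1, a ribosome recycling factor, with a ratio of 0.65 (0.24 to 1.06), and the 1 called lower was Pdcd4, an inhibitor of eIF4A, with a ratio of -0.72 (-1.01 to -0.43).

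Since synthetases stood together in cycling cells, the promoters of all 3 groups were read for 3 motifs that named factors are known to bind. RefSeq promoters of build GRCm38.p6, from 250 bases before to 50 after a start, were given for 62 of the 84 genes (44 initiation, 7 elongation and 11 synthetase genes), both strands were searched, and a gene with several starts counted once if any window held the motif. TTGCATCA, a form of the element that ATF4 reads with C/EBP partners, stood in 4 of 11 synthetase promoters (36.4%), in 0 of 44 initiation and 0 of 7 elongation promoters, in 0.606% of genes past the floor over all cells, and in 1.03% of all 27025 genes with a promoter. The 4 sites are shown 5′ to 3′ on the gene's strand with the motif in capitals, in the opposite orientation in Yars, where it reads TGATGCAA. They are shown because all matches to this motif among the 62 genes lie in synthetases.

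Aars: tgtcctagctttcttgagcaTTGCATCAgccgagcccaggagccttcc
Tars: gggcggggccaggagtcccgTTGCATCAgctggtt
Iars: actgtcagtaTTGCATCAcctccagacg
Yars: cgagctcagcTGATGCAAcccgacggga

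They lie at chr8:111033710-111033757, plus strand, 112 bases before the Aars start; at chr15:11399659-11399693, minus strand, 15 bases before the Tars start; at chr13:49682127-49682154, plus strand, 8 bases after the Iars start; and at chr4:129189896-129189923, plus strand, 4 bases after the Yars start. Tars and Yars were among the 4 synthetases called higher in mutant cycling cells. Of the rest of these, Farsb held no match and no promoter was given for Wars. Aars was among the 5 called higher in cycling than in DP cells. Of the rest of those, Kars held no match and no promoter was given for Vars, Rars and Hars. Iars stayed below the floor. A link between motif and level was not tested.

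CACGTG, the E-box that MYC reads with MAX and its own reverse complement, stood in 4 of 11 synthetase promoters (36.4%), 10 of 44 initiation promoters (22.7%) and 2 of 7 elongation promoters (28.6%). It stood in 12.3% of the genes past the floor over all cells and in 8.09% of all genes with a promoter. CCAAT, read by NF-Y, stood in 6 of 11, 15 of 44 and 1 of 7, and in 41.1% of all. The E-boxes of 4 genes with opposite courses over the stages are shown: Eef2k (highest in early cells), Eef2 (lowest in cycling cells), Eif4e (highest in cycling cells) and Farsb (higher in mutant cycling cells).

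Eef2k: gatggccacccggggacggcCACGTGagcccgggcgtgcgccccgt
Eef2: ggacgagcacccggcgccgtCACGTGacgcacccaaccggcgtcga
Eif4e: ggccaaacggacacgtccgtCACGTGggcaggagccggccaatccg
Farsb: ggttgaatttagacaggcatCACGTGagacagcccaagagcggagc

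They lie on the plus strand at chr7:120842780-120842825, chr10:81176568-81176613 and chr3:138527184-138527229, and on the minus strand at chr1:78488911-78488956. In this order they are 31, 43, 64 and 39 bases before a RefSeq start. For Eif4e this is the later of the starts given and lies inside the gene. The window of its earlier start held no E-box. Of these 4 genes with the motif, Eef2 was called lower and Eif4e higher in cycling than in DP cells. A match of letters is a description of the sequence, and no binding was measured.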

How the data were processed

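Single-cell RNA was counted in thymocytes of 1 wild type and 1 mutant library with a 10x 3′ v2 kit, per the labels' protocols. Values as deposited are whole-number UMI counts per barcode and gene symbol, made by the authors with Cell Ranger on mm10, per the submitters' processing notes; versions and the treatment of reads matching several genes are not given in the sources used here. Deposited barcodes started at different UMI totals in the libraries.

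Barcodes with at least 400 genes and at most 10% mitochondrial UMIs were kept (1341 and 1731). Cells were set to stages by marker UMIs, in order: other cells, early, cycling, SP, post-selection, DP. UMIs were summed per stage and library (Python 3.11.15, numpy 2.4.6, scipy 1.17.1). Intervals are exact Poisson for levels, exact conditional for ratios and Clopper-Pearson for shares. Genes used to set stages were left out of the stage comparisons. Ratios and intervals were tested on simulated data. Each genotype had 1 library, so genotypes were not tested against each other, and intervals cover counting error only.

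Genes and lists were chosen with earlier results of these data known. Named were, per comparison and group, the 3 highest and 3 lowest by ratio, the 5 most abundant, the 5 with the widest stage range, paralog sets and complexes. Further genes, named because they were called or for their values (such as Eif2ak3, Eif3e, Eif3k, Atf4, Phgdh and Pdcd4), were chosen after their values were seen. Alternatives changed scaling, pseudocount, floor, weighting of cells, depth (1500 UMIs per cell), lower limit, high-UMI cells and stage limits. Limiting cycling cells to those with coreceptor UMIs, and innate-like cells to a rate of 30 per 10000, was added after seeing the data.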

Additional observations from a re-analysis of the deposited data

Results flagged for a closer look

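A few genes lay on opposite sides of 0, beyond counting error on the CPM scale, in different stages or libraries. Counting intervals of these ratios were not taken under the other scalings, so a kept sign there can lie within counting error. These differences were not tested, since each rests on 1 library per genotype. All values are log2 ratios of CPM with nothing added, and values under other scalings are given without ribosomal protein, mitochondrial and Malat1 UMIs first and scaled by the median ratio second.

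Eif1, the start codon factor, was higher in mutant in early cells (0.35, and 0.13 and 0.10 under the other scalings) and lower in DP cells (-0.34, and -0.44 and -0.47). In cycling cells it was 0.12, but -0.012 and -0.043 under the other scalings, so its side of 0 there depended on the scaling. Its cycling over DP ratio was -0.34 in wild type and 0.12 in mutant, and the mutant value was -0.040 and 0.21 under the other scalings. Eif4a2, the helicase paralog, was higher in mutant cycling cells (0.33, and 0.19 and 0.16 under the other scalings). It was lower in mutant DP cells (-0.34, and -0.44 and -0.47).

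Eif3d, a subunit of eIF3, had a cycling over DP ratio of -0.35 in wild type and 0.34 in mutant. Eif1b, the paralog of Eif1, had a post-selection over DP ratio of 0.44 in wild type and -0.48 in mutant. Both kept their signs under the other scalings. For Eef2, the translocation factor, the SP over DP ratio was -0.20 in wild type and 0.22 in mutant, but the wild type value was 0.076 and 0.25 under the other scalings, where the libraries no longer lay on opposite sides.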

How the results depend on the processing

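No paired analysis was possible because there was 1 library per group and the labels give no replicate numbers. A set of 106 ratios of single genes (those called, and Eif4ebp1) was recomputed under 15 alternatives. Mutant over wild type ratios whose intervals held 0, called or not, were left out of this set. All 106 kept their direction except Wars in cycling cells, whose mutant over wild type ratio was -0.14 with cells thinned to 1500 UMIs. The cause of this and of the changes below was not tested. Thinning moved 12 of the 106 by over 0.5. Depth limits the stages with few wild type cells, 57 early and 85 post-selection.

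Without ribosomal protein, mitochondrial and Malat1 UMIs the elongation medians of mutant over wild type became -0.61 in early and -0.36 in cycling cells, and those over DP cells 0.62 (early, mutant), -0.014 (cycling, mutant), 0.73 and 0.98 (SP, wild type and mutant). The counts called mutant over wild type were then 16 in early, 7 in DP and 6 in SP cells, against 10, 4 and 2. Scaled by the median ratio, the elongation medians were -0.18 over all, -0.62 in early and -0.42 in cycling cells, SP over DP 0.84 in wild type and 1.26 in mutant, and initiation in mutant SP cells 0.17. In SP cells 5 genes were then called. Both scalings also change which genes pass the floor. For the genes of the report the calls were 16, 4 and 2 in early, DP and SP cells without those UMIs and 15, 4 and 2 by the median ratio, and the cycling elongation median by the median ratio was -0.39.

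With no CPM floor the elongation median was -0.047 in cycling cells and 0.56 for mutant SP over DP, and 2, 7 and 5 genes were called over all, DP and SP cells, and 9 for post-selection over DP (5 reported). A floor of 50 CPM left 6 calls in early, 2 in cycling and 0 in SP cells and 6 for early over DP (6 and 11 reported for cycling cells and early over DP). Thinning gave 16, 10 and 12 calls in early, cycling and SP cells, and a mean over cells 5 in SP cells.

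Leaving out the top 5% of cells by UMIs gave elongation medians of -0.35 for mutant over wild type in cycling cells and -0.088 for mutant cycling over DP. The latter was -0.032 with the same lower limit in both libraries. Doubled stage rates gave -0.24 (post-selection, mutant over wild type), 0.11 (early over DP, mutant), -0.10 and -0.066 (cycling over DP, wild type and mutant), 0 calls in DP and 8 in SP cells, and 3 for post-selection over DP. Halved rates gave 1 call in SP cells. The added rate for innate-like cells gave 4 calls in SP cells and 5 for SP over DP (8 reported). Under the added limit on cycling cells each of the 52 medians and counts stayed within the bounds (medians) or within 1.5 times (counts) of the one reported.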
